A study of Mus musculus with 24 samples.

Results

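The genes described here encode the nuclear pore complex and the machinery that carries proteins and RNA through it: nucleoporins, importins, exportins and the Ran cycle. A row of the count tables was taken where its symbol, without regard to case, began with Nup, Kpna, Xpo, Ipo or Ranbp followed by a digit, or was Kpnb1, Xpot, Ran, Rcc1, Rangap1, Tpr, Pom121 or Ndc1. This gave 68 of 49982 symbols, of which 55 stood in all 3 tables (24034 symbols) and 13 were pseudogene entries, present in the D2A1 and EMT6 tables alone and with no more than 1 count in any library. Cells of the mouse mammary carcinoma lines 4T07, D2A1 and EMT6 had been transduced with mCherry and with mVenus-p27k, a reporter built on a p27 form that accumulates in resting cells. Balb/cJ females received 250000 cells of a line in the mammary fat pad, and the tumours were harvested at day 14. Each of 4 tumours per line gave a p27K high library (labelled QCC by the submitters) and a p27K negative library (their proliferative population), so that 12 tumours gave 24 libraries. The 4T07 count columns name the second gate low, and these were taken as the p27K negative libraries of the labels. All groups share the reporter, the strain and the host; neither the age of the mice nor the clonality of the lines is stated. The lines were sequenced in separate runs, so line and run cannot be told apart. The 4T07 table has 24982 entries and no counts of mitochondrial genes, while the D2A1 and EMT6 tables have 49316 entries each. Line thus also goes with the gene list of its table.

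The nuclear pore is a ring of nucleoporins in the nuclear envelope through which larger molecules pass with a carrier. Importin alpha binds a nuclear localisation signal and importin beta 1 (Kpnb1) carries the pair inward, while exportins bind cargo in the nucleus. The small GTPase Ran, charged by the exchange factor Rcc1 in the nucleus and discharged with the help of Rangap1 in the cytoplasm, sets the direction. In dividing cells the pore is taken apart and rebuilt, the Y complex of nucleoporins also sits at kinetochores, and the Ran cycle and importins also act on the spindle.

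Total counts per library were 27887221 to 45460880 in p27K high and 28961831 to 35197694 in p27K negative 4T07 libraries. They were 6727594 to 20174767 in p27K high and 1335433 to 15641189 in p27K negative D2A1 libraries, and 13769682 to 20142013 in p27K high and 16988365 to 17508301 in p27K negative EMT6 libraries. The p27K high library of 4T07 tumour 2 stood apart, with 13500 genes detected against 15094 to 15370 in the other p27K high libraries of that line. So did that of D2A1 tumour 3, with 6727594 counts and 18255 genes detected. The other p27K high libraries of D2A1 had 20881 to 21278 genes detected. In p27K negative D2A1 libraries, tumours 1 to 3 had 1335433 to 2110563 counts and 15164 to 16196 genes detected. The p27K negative library of D2A1 tumour 4 had 15641189 counts and 21319 genes detected. Depth and gate thus go together in D2A1 tumours 1 to 3. Mki67, a marker of cycling cells, averaged 19.8 ± 7.27, 17.1 ± 6.47 and 13 ± 1.65 CPM in p27K high libraries of 4T07, D2A1 and EMT6, against 1720 ± 238, 982 ± 103 and 516 ± 46.8 CPM in p27K negative ones (SD, n = 4). Cdkn1b, the gene of p27, averaged 421 ± 104, 439 ± 27.3 and 328 ± 29.2 CPM in p27K high and 222 ± 22.8, 319 ± 29.7 and 225 ± 13.5 CPM in p27K negative libraries of the same lines, and whether reporter reads count towards it is not known. Of 6 epithelial markers 4, 2 and 4 passed the low-count filter in 4T07, D2A1 and EMT6, with summed levels in p27K high of 431 to 571, 92.8 to 203 and 603 to 859 CPM, against 565 to 686, 62.5 to 454 and 749 to 1040 CPM in p27K negative. Of these 2, 1 and 1 were called lower and 0 higher, and Krt8 was lower in each line (-0.48, -2.46 and -0.30). In 4T07, 12 of 12 macrophage markers were lower in p27K high libraries, where they summed to 156 to 165 CPM, against 494 to 1100 CPM in p27K negative libraries. The same 12 summed to 140 to 181 CPM in p27K high and 72 to 130 CPM in p27K negative D2A1 libraries, and to 46.5 to 58.9 CPM in p27K high and 32.2 to 45.9 CPM in p27K negative EMT6 libraries. In D2A1 that sum is mostly Cd14 (137 CPM in p27K high and 61.6 CPM in p27K negative libraries on average), the 1 marker called higher. The other 7 tested had changes of -1.56 to -0.37, none called, and the median of all 8 tested, Cd14 included, was -0.94. EMT6 had 3 higher and 1 lower of 6 tested. Of the fibroblast markers tested, 2 were higher and 2 lower of 6 in 4T07, 1 higher and 4 lower of 7 in D2A1, and 5 higher and 0 lower of 6 in EMT6. Their sum in 4T07, mostly Dcn and Pdgfra, was 1470 to 2260 CPM in p27K high and 562 to 735 CPM in p27K negative libraries. Endothelial markers were lower for 3 of 3 tested in 4T07 and 2 of 2 in D2A1, at sums of up to 3.77 CPM in p27K high and 26.7 CPM in p27K negative libraries of these lines. Of T cell and NK markers 2 of 4 tested were lower and 0 higher in 4T07, and 0 could be tested in D2A1 or EMT6. Ptprc, the gene of CD45, averaged 7.8 CPM in p27K high and 29.6 CPM in p27K negative 4T07 libraries. Neutrophil markers were lower for 2 and higher for 0 of 5 tested in 4T07, and higher for 1 of 1 in D2A1 and in EMT6. Of all genes tested, 23.6%, 14.7% and 25.1% were called lower in 4T07, D2A1 and EMT6, and 22.1%, 14.9% and 24.1% higher. No macrophage marker was at 0 in all libraries of a line, and the part of any of these cell types in the results was not tested. In bulk samples, fewer cells of a type and less RNA per cell cannot be told apart.

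Most of the tested genes that the rule matched were lower in p27K high than in p27K negative cells of the same tumour. A call was an adjusted p under 0.05 in edgeR's quasi-likelihood test with Benjamini-Hochberg (BH) adjustment over all genes tested, with the tumour as a block. In 4T07, 31 of 52 tested members were lower (23.6% of all genes tested were) and 1 was higher (22.1% of all genes). D2A1 had 41 of 50 lower (14.7% of all genes) and 1 higher (14.9%), and EMT6 had 41 of 50 lower (25.1%) and 1 higher (24.1%). The median log2 change of the tested members, p27K high over p27K negative, was -0.52 in 4T07, -0.70 in D2A1 and -0.45 in EMT6, where the medians of all genes were 0, 0.02 and 0.02. A fall of at least 2-fold was called for 13, 16 and 12 members of 4T07, D2A1 and EMT6, beside 10.3%, 4.95% and 4.16% of all genes. All 4 p27K high libraries lay below all 4 p27K negative ones for 27, 39 and 40 members, beside 21%, 15.6% and 19.3% of all genes. Without tumour 2, 36 members were lower in 4T07 and 2 were higher, while 7727 of all genes were called in either direction, beside 5868 with it. Leaving out D2A1 tumour 3 gave 42 members lower in D2A1, and 5051 of all genes called in either direction, beside 3794 with it. The D2A1 member called higher was not called without tumour 1, 2 or 4, and without tumour 0 EMT6 had 2 higher.

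Of 50 members tested in every line, 29 were lower in all 3 lines, against 9.62% of the genes so tested. Averaged over the lines with equal weight, 41 of 52 members were lower (24% of all genes tested) and 2 were higher (28.3%), with a median of -0.50 against 0.03 for all genes. The 4 lowest averages belonged to Kpna2 (-2.58 ± 0.07), Rangap1 (-2.32 ± 0.08), Ndc1 (-1.79 ± 0.05) and Nup37 (-1.65 ± 0.08, log2 ± SE, 12 tumours). Ranbp9 was higher in all 3 lines, and Ranbp6 was higher on average. The members Kpna7, Nup62cl and Ranbp3l had too few counts to test in any line, at most 2 in a library. Nup210 and Ranbp17 were tested in 4T07 and in the average only, since no D2A1 or EMT6 library held more than 12 of their counts.

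**Figure D1:**
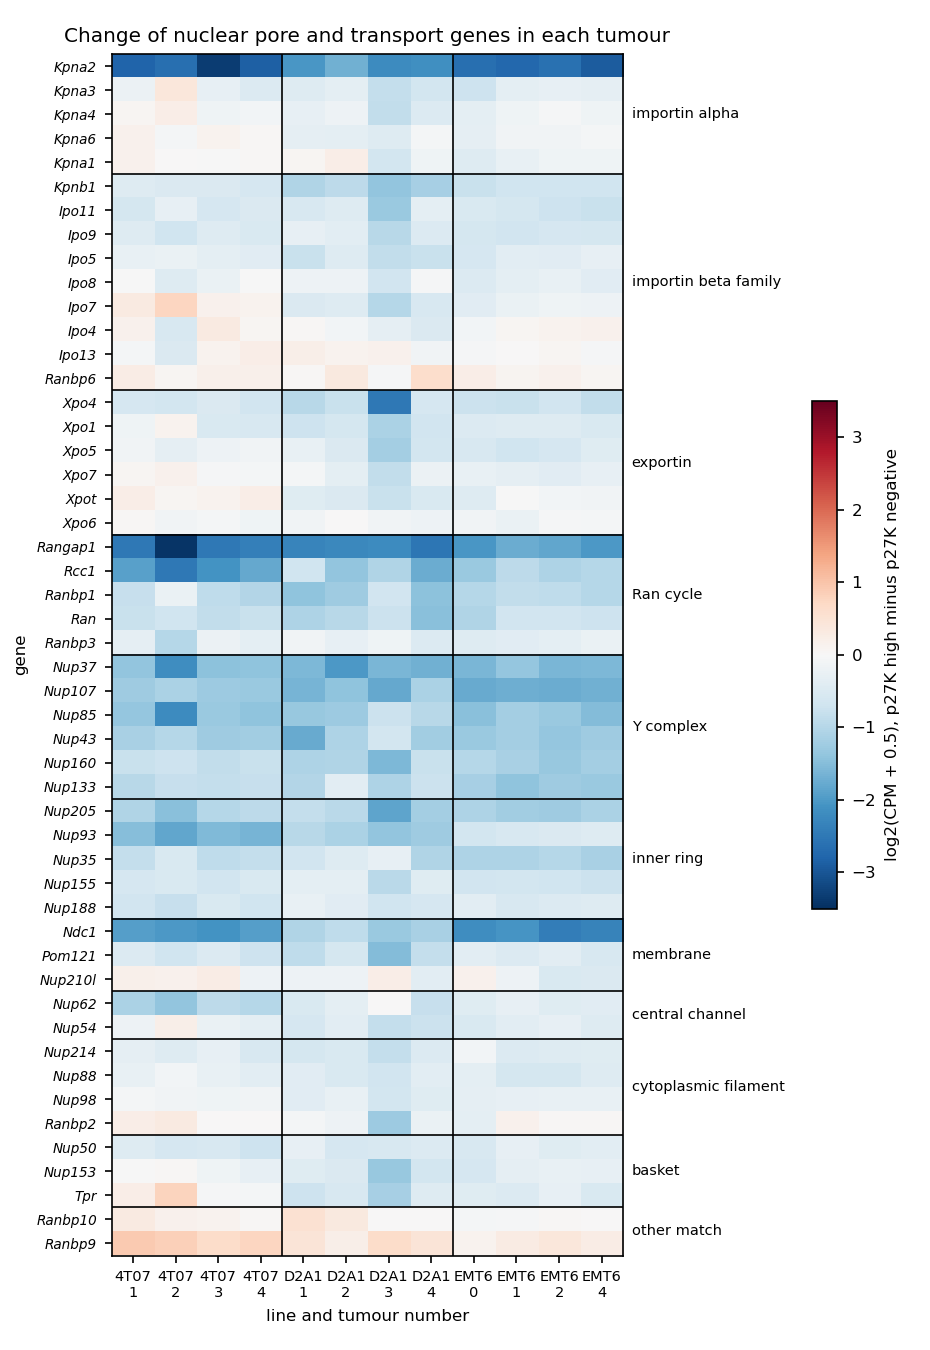
Change of each member in each of the 12 tumours, as log2(CPM + 0.5) of the p27K high minus that of the p27K negative library, with genes grouped by role down the page and tumours across it. Blue is lower in p27K high; Kpna2, Rangap1 and Ndc1 are the darkest rows and Ranbp9 is above 0 in all 12 tumours.

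The promoters of the 4 members with the lowest averages are shown, and all 4 hold a short motif near a start. These members were picked by their change, and several motifs were searched in a shorter and a longer window. Whether the motif bears on the changes was not tested. RefSeq promoter sequences (GRCm38.p6, 250 bases before to 50 after a gene's start) were found for 44 of the 55 members. Nup85 and Nup43, both with low averages, are among those without one. The hexamer TTTGAA, the core of the cell cycle homology region (CHR), occurs on either strand within 100 bases before to 50 after a start in 6 of 44 members (13.6%), which are Kpna2, Rangap1, Ndc1, Nup37, Ranbp1 and Ipo4. Of the genes tested that have a promoter sequence 5.77% hold it there, and of all RefSeq promoters 8.01%. Nup107 and Rcc1, the next lowest averages with a promoter sequence, do not hold it there. Below are the last 150 bases of each window, 5′ to 3′, with the hexamer and the CCAAT box, read on either strand, in capitals; Kpna4, an importin alpha that does not hold TTTGAA in its window, is given for contrast.
Kpna2: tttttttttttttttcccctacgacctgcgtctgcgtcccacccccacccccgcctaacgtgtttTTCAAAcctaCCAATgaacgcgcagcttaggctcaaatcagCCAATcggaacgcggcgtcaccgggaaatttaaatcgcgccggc
Rangap1: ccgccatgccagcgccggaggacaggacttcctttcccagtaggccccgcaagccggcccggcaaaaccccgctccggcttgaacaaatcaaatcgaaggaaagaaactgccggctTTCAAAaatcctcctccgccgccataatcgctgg
Ndc1: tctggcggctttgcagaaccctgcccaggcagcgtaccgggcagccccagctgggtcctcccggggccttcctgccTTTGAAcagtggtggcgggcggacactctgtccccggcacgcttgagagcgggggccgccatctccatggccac
Nup37: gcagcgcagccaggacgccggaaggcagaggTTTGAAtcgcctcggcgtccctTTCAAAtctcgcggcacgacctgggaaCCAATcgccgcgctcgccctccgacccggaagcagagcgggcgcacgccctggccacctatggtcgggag
Kpna4: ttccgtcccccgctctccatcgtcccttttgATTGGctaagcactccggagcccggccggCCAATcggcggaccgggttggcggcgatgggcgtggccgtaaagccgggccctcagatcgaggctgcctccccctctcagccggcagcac
These run over chr11:106999476-106999625 on the minus strand for Kpna2, chr15:81729870-81730019 on the minus strand for Rangap1, chr4:107367947-107368096 on the plus strand for Ndc1, chr10:88146892-88147041 on the plus strand for the first of the starts listed for Nup37, and chr3:69127043-69127192 on the minus strand for Kpna4. In Kpna2 the hexamer begins 35 bases before the start on the other strand and is followed by CCAAT 25 bases before it and again after it. In Rangap1 the hexamer begins 16 bases after the start, also on the other strand. In the whole window TTTGAA was in 12 of 44 members (27.3%, and 14.4% of the genes tested). CCAAT, searched on both strands, was in 20 of 44 (45.5%, and 42.9%). Unlike the genes set beside them, the 44 include the untested Kpna7, Nup62cl and Ranbp3l. In the whole window Kpna7 holds TTTGAA and CCAAT, and Nup62cl holds CCAAT. The NRF1 palindrome, searched in a single spelling, was in 5 of 44 (11.4%; 2.27%), which are Nup107, Nup50, Nup62, Ran and Xpo5, and an E2F motif, in any of 3 spellings, in 3 of 44 (6.82%; 3.95%). A match is a run of letters and not a shown site, and Ipo4, which holds TTTGAA, was not called in any line; it was called lower in D2A1 without tumour 3 (-0.29, adjusted p = 0.0411, edgeR) and higher in EMT6 without tumour 0 (0.11, adjusted p = 0.0323).

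Kpna2 encodes an importin alpha, the adaptor that reads the nuclear localisation signal (gene ENSMUSG00000018362.14, chr11:106988629-106999541 on the minus strand of GRCm38). In 4T07 tumours 1 to 4 it had 11.6, 18.5, 8.73 and 12.4 CPM in p27K high 4T07 libraries, against 85.4, 119, 94.2 and 96.9 CPM in p27K negative ones. D2A1 tumours 1 to 4 gave 29.5, 26.5, 23.8 and 20.2 CPM in p27K high libraries, against 129, 90.3, 115 and 94.7 CPM in p27K negative libraries. EMT6 tumours 0, 1, 2 and 4 gave 23.1, 24.1, 26.1 and 23.1 CPM in p27K high libraries, against 148, 164, 163 and 175 CPM in p27K negative libraries. The gates did not overlap in any line. The log2 change was -2.98 ± 0.13 in 4T07, -2.10 ± 0.13 in D2A1 and -2.75 ± 0.06 in EMT6 (edgeR quasi-likelihood, adjusted p = 3.5e-06, 4.71e-08 and 1.67e-09), or 7.91-fold, 4.28-fold and 6.72-fold lower. The fall differed between lines (adjusted p = 0.00183 in the edgeR test of equal change). The fall was smallest in D2A1: the change in 4T07 minus that in D2A1 was -0.91 ± 0.16 (adjusted p = 0.00092, edgeR), and that in D2A1 minus that in EMT6 was 0.70 ± 0.16 (adjusted p = 0.0219, edgeR). The near-identical copy Gm10184 (99.9% identity) had 1.2% and 1.19% as many counts as Kpna2 in D2A1 and EMT6, so reads may have been split between them.

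The other importin alpha genes had changes nearer 0. Kpna1 had 55.9, 60.7, 48.4 and 61 CPM in p27K high 4T07 libraries, against 51.2, 60.6, 50.5 and 61.9 CPM in p27K negative ones. D2A1 gave 65.9, 68, 45.5 and 54.3 CPM in p27K high libraries, against 66.1, 60.4, 73.6 and 63.1 CPM in p27K negative libraries. EMT6 gave 47.7, 45.7, 48.9 and 44.9 CPM in p27K high libraries, against 65, 54.6, 55.4 and 50.3 CPM in p27K negative libraries. The gates overlapped in 4T07 and D2A1 and not in EMT6, where Kpna1 was lower by a change of -0.26 ± 0.06 (adjusted p = 0.00617, edgeR). In 4T07, Kpna1, Kpna3, Kpna4 and Kpna6 were not called, with changes of 0.01, -0.17, -0.02 and 0.02. In D2A1 the changes were -0.63 for Kpna3, -0.51 for Kpna4 and -0.35 for Kpna6, all called lower, and in EMT6 they were -0.42, -0.18 and -0.16, also called. Kpna7 held at most 2 counts in any library. The EMT6 calls of Kpna4 and Kpna6 were lost without the block (adjusted p = 0.108 and 0.0684, edgeR), and the D2A1 call of Kpna6 without tumour 1 or 2 (0.143 and 0.162). Leaving out EMT6 tumour 1 or 4 ended the EMT6 call of Kpna4, and EMT6 tumour 1 or 2 that of Kpna6. Total count scaling gave Kpna1 a called average of -0.20. Without tumour 2, Kpna3 was called lower in 4T07, at -0.36 (adjusted p = 0.00113, edgeR).

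Levels between genes were compared as CPM per kb of exon. Kpna2 made up 6.12% ± 0.703 of the importin alpha CPM per kb in p27K high and 33.3% ± 1.6 in p27K negative 4T07 libraries (SD, n = 4). Its share was 10.6% ± 1.25 in p27K high and 26.6% ± 2.45 in p27K negative D2A1 libraries, and 10.6% ± 0.516 in p27K high and 39.7% ± 2.56 in p27K negative EMT6 libraries. In p27K negative libraries it was thus the most abundant importin alpha of 4T07 and EMT6 per length, and in D2A1 it came after Kpna4 (32.8% ± 1.03). That order rests on the division by exon length. By CPM alone Kpna2 averaged 98.7 in p27K negative 4T07 libraries, below Kpna3, Kpna4 and Kpna6 (126, 147 and 112). In p27K negative EMT6 libraries it averaged 162 CPM, below Kpna4 (217 CPM). In p27K high libraries the largest share was held by Kpna3 in 4T07 and EMT6 (36.7% ± 7.67 and 34.5% ± 1.51) and by Kpna4 in D2A1 (39.1% ± 1.07).

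**Figure D2:**
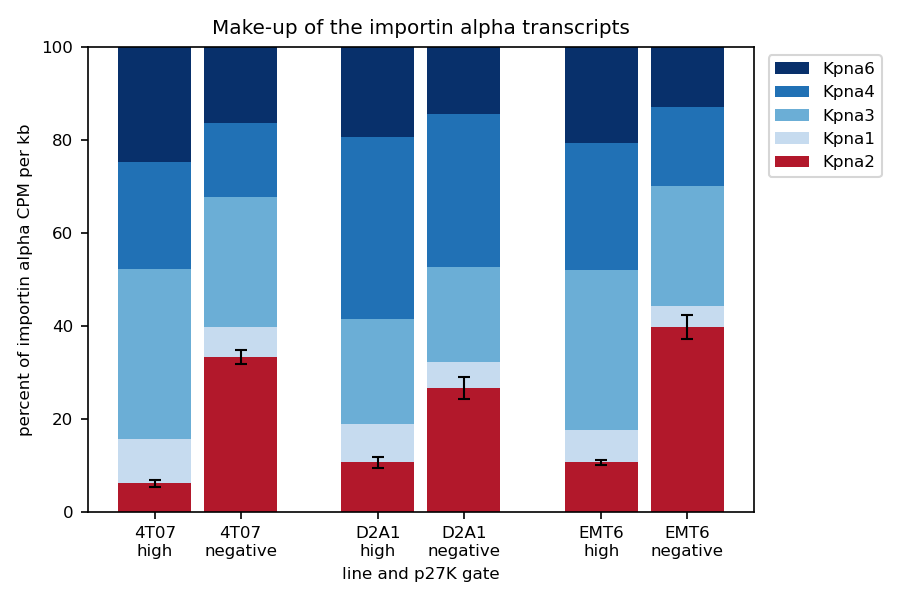
Make-up of the importin alpha transcripts in p27K high and p27K negative libraries of each line, as the mean percent of summed importin alpha CPM per kb (4 libraries a bar, SD shown for Kpna2). Kpna2, in red at the foot of each bar, holds 6.12% to 10.6% of p27K high bars and 26.6% to 39.7% of p27K negative bars.

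Kpnb1, importin beta 1, is the partner that carries importin alpha and its cargo. It had 506, 516, 467 and 451 CPM in p27K high 4T07 libraries, against 712, 732, 684 and 706 CPM in p27K negative ones. D2A1 gave 267, 279, 202 and 226 CPM in p27K high libraries, against 580, 549, 546 and 527 CPM in p27K negative libraries. EMT6 gave 394, 430, 411 and 421 CPM in p27K high libraries, against 676, 696, 673 and 683 CPM in p27K negative libraries. The gates did not overlap in any line, and the changes were -0.55 ± 0.07, -1.19 ± 0.12 and -0.72 ± 0.04 in 4T07, D2A1 and EMT6 (edgeR adjusted p = 0.000858, 5.95e-06 and 6.75e-07). The change differed between lines (adjusted p = 0.004, edgeR), and 4T07 minus D2A1 was 0.61 ± 0.12 (adjusted p = 0.00182).

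The importin beta family members other than Kpnb1 carry particular cargoes, among them ribosomal proteins and histones. Of the 9 members of the family, Kpnb1 included, 6 were lower on average, 1 was higher and 2 were not called, with a median of -0.26. On average 24% of all genes tested were lower and 28.3% higher. Ipo11, Ipo9, Ipo5, Ipo8 and Ipo7 averaged -0.61, -0.56, -0.48, -0.26 and -0.17, and Ipo11, Ipo9 and Ipo5 were called lower in all 3 lines. The 4T07 call of Ipo5 was lost without the block (adjusted p = 0.0582, edgeR) and without tumour 3 or 4 (0.0519 and 0.0574). Ipo4 and Ipo13 averaged -0.06 and 0.01 and were not called; 55.3% of the exonic bases of Ipo4 overlap another gene, Gm49378. The average of Ipo7 was called (adjusted p = 0.0294, edgeR), yet its change was 0.31 in 4T07, where it was not called, -0.68 in D2A1 and -0.24 in EMT6, and the average was not called without the block (adjusted p = 0.167, edgeR) or without 4T07 tumour 1, 3 or 4, D2A1 tumour 3 or EMT6 tumour 0 or 1. In 4T07 Ipo7 was called higher without tumour 2 (0.16, adjusted p = 0.0398, edgeR) and in DESeq2 (0.33, adjusted p = 0.0421), and its EMT6 call was lost without the block (adjusted p = 0.0519, edgeR). Ranbp6 had 12.3, 16.2, 16.4 and 16.8 CPM in p27K high 4T07 libraries, against 10.4, 15.5, 14.8 and 15.2 CPM in p27K negative ones. D2A1 gave 16.1, 16.1, 15.8 and 17.2 CPM in p27K high libraries, against 16.3, 13.1, 16.6 and 11.6 CPM in p27K negative libraries. EMT6 gave 27.5, 24, 26.3 and 22.5 CPM in p27K high libraries, against 23.2, 22.6, 24.1 and 21.3 CPM in p27K negative libraries. Gates overlapped in each line and no line was called, while the average was 0.22 ± 0.07 (adjusted p = 0.0131, edgeR); total count scaling ended that call, at 0.13, as did leaving out D2A1 tumour 4, at 0.16.

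Kpna2 was set against 12 other importins (the 4 other importin alpha genes tested, Kpnb1 and the Ipo genes, without Ranbp6) by the change within each tumour, log2(CPM + 0.5). Its change was lower than that of every one of them in 12 of 12 tumours. The mean difference, Kpna2 minus the other gene, was between -2.56 ± 0.47 for Ipo13 and -1.76 ± 0.69 for Kpnb1 (SD, n = 12 tumours). Each of the 12 comparisons gave the smallest p that an exact two-sided sign-flip permutation test over 12 tumours allows, 0.000488, which was also the value after Benjamini-Hochberg adjustment over the 12. Within a line the 4 tumours are too few for this test to reach 0.05, so their values are given without one. Against the median of these 12, the change of Kpna2 came to a difference of -3.14 to -2.38 in 4T07 tumours, -1.73 to -1.35 in D2A1 and -2.65 to -2.19 in EMT6. The comparison was named with earlier results known, so its p is no independent evidence.

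**Figure D3:**
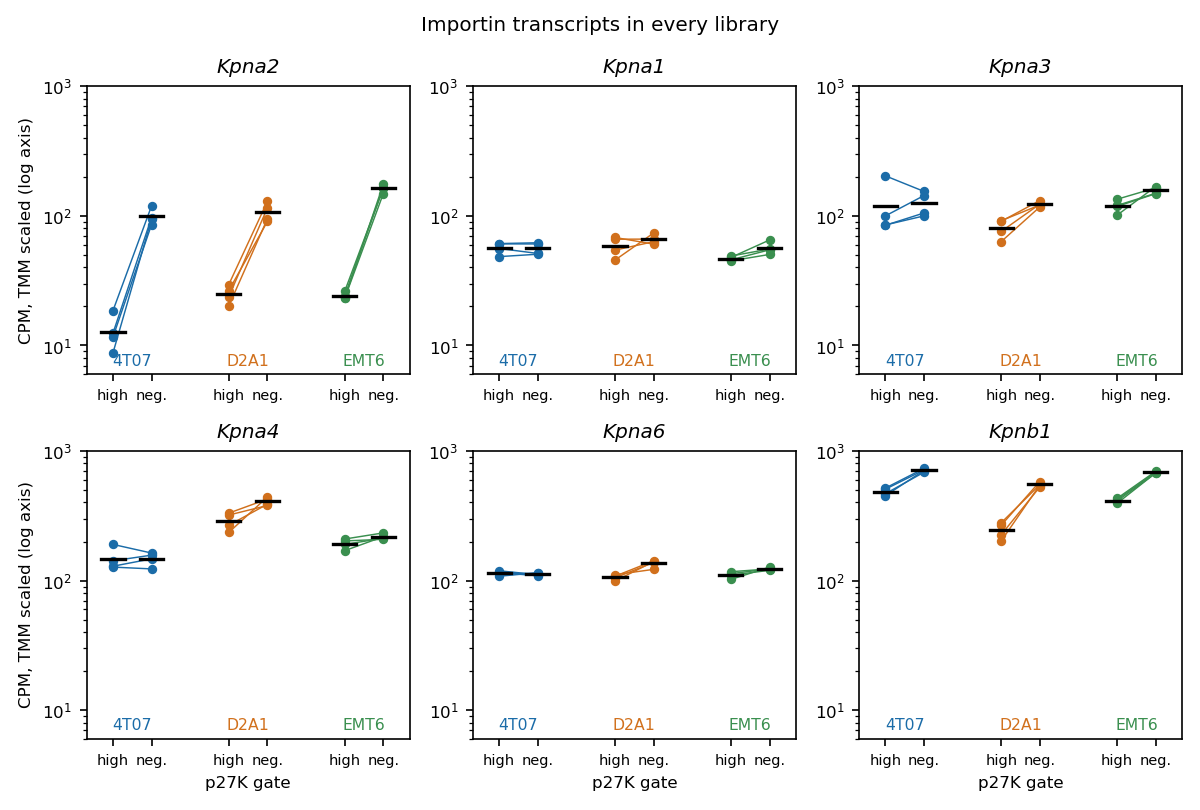
CPM (TMM scaled, log axis) of Kpna2, 4 other importin alpha genes and Kpnb1 in every library, with p27K high left of p27K negative, a line per tumour and a bar at the mean. Kpna2 lies at 29.5 CPM or less in every p27K high library and at 85.4 CPM or more in every p27K negative library. The gates of Kpna1, Kpna3, Kpna4 and Kpna6 overlap in 4T07. Of these genes only Kpna1 overlaps between gates in D2A1, and only Kpna4 in EMT6. The gates of Kpnb1 are apart in every line.

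In the Ran cycle 5 of 5 tested members were lower in each line. Of all genes tested, 23.6%, 14.7% and 25.1% were lower in 4T07, D2A1 and EMT6. Rangap1, which makes Ran hydrolyse its GTP, had 29.8, 15.6, 28.9 and 30.9 CPM in p27K high 4T07 libraries, against 174, 174, 169 and 169 CPM in p27K negative ones. D2A1 gave 46.3, 49.6, 60.8 and 41 CPM in p27K high libraries, against 244, 249, 292 and 248 CPM in p27K negative libraries. EMT6 gave 71.5, 78.7, 81.5 and 69.3 CPM in p27K high libraries, against 299, 264, 294 and 279 CPM in p27K negative libraries. Gates lay far apart in each line, and the p27K high library of tumour 2 was the lowest of 4T07. The changes were -2.74 ± 0.18, -2.40 ± 0.12 and -1.92 ± 0.06 (edgeR adjusted p = 2.68e-05, 3.99e-09 and 1.18e-08), a difference between lines at an adjusted p of 0.0145. Without tumour 2 the 4T07 change was -2.51.

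Rcc1, the exchange factor that loads Ran with GTP on chromatin, had 20.7, 12.8, 18.5 and 22.4 CPM in p27K high 4T07 libraries, against 80.1, 74.3, 82.1 and 81.9 CPM in p27K negative ones. D2A1 gave 27.4, 25.7, 28.8 and 18.8 CPM in p27K high libraries, against 46.8, 71.1, 62 and 66.6 CPM in p27K negative libraries. EMT6 gave 63.4, 65.1, 65.6 and 59.6 CPM in p27K high libraries, against 156, 124, 141 and 121 CPM in p27K negative libraries. The gates did not overlap. Its changes were -2.12 ± 0.13, -1.33 ± 0.17 and -1.09 ± 0.06, all called, and they differed between lines (adjusted p = 0.0027, edgeR). Ran itself had 166, 188, 166 and 179 CPM in p27K high 4T07 libraries, against 293, 303, 308 and 316 CPM in p27K negative ones. D2A1 gave 223, 232, 270 and 184 CPM in p27K high libraries, against 500, 477, 473 and 527 CPM in p27K negative libraries. EMT6 gave 372, 454, 461 and 412 CPM in p27K high libraries, against 766, 726, 737 and 678 CPM in p27K negative libraries. Its gates did not overlap either, and it averaged -0.87 ± 0.06, with no difference between lines called (adjusted p = 0.179, edgeR).

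Ranbp1, which helps Rangap1 act on Ran, had 122, 236, 115 and 123 CPM in p27K high 4T07 libraries, against 218, 278, 218 and 261 CPM in p27K negative ones. D2A1 gave 108, 120, 176 and 99.1 CPM in p27K high libraries, against 301, 299, 289 and 282 CPM in p27K negative libraries. EMT6 gave 133, 131, 148 and 125 CPM in p27K high libraries, against 264, 240, 279 and 251 CPM in p27K negative libraries. Only in 4T07 did the gates overlap, through the p27K high library of tumour 2, and without that tumour the 4T07 change was -0.95 in place of -0.77. Ranbp3, a cofactor of Xpo1, had the highest average of the Ran cycle, -0.37 ± 0.07. It had 81.3, 44.2, 77.5 and 73 CPM in p27K high 4T07 libraries, against 104, 89.5, 91.2 and 96.8 CPM in p27K negative ones. D2A1 gave 94.2, 92.5, 109 and 83.6 CPM in p27K high libraries, against 107, 119, 125 and 122 CPM in p27K negative libraries. EMT6 gave 63.9, 76.1, 71 and 77.6 CPM in p27K high libraries, against 88.5, 100, 90.1 and 91 CPM in p27K negative libraries. Gates overlapped in D2A1 alone, and the call there (adjusted p = 0.0475, edgeR) was lost without tumour 1, 2 or 4 and in DESeq2. Its 4T07 call was lost without the block (adjusted p = 0.062, edgeR) or without tumour 1.

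Exportins carry cargo out, and 5 of 7 tested were lower on average (24% of all genes tested), with a median of -0.47. Xpo1, the exporter of proteins with a leucine-rich signal, had 242, 509, 234 and 280 CPM in p27K high 4T07 libraries, against 277, 467, 346 and 429 CPM in p27K negative ones. D2A1 gave 218, 242, 200 and 219 CPM in p27K high libraries, against 378, 387, 443 and 364 CPM in p27K negative libraries. EMT6 gave 231, 238, 267 and 233 CPM in p27K high libraries, against 322, 324, 368 and 337 CPM in p27K negative libraries. The gates overlapped in 4T07 alone, where the p27K high library of tumour 2 was the highest and Xpo1 was not called (-0.31 ± 0.13, adjusted p = 0.0862, edgeR). Without tumour 2 it was called there, at -0.46 (adjusted p = 0.000678), and its changes in D2A1 and EMT6 were -0.84 and -0.48. Xpo4 and Xpo5, an exporter of pre-miRNA, averaged -0.83 and -0.47 and were lower in every line, although the 4T07 call of Xpo5 was lost without the block (adjusted p = 0.118, edgeR) and without tumour 1, 3 or 4. Xpo7 averaged -0.22 and was lower in D2A1 and EMT6, with a D2A1 call lost without tumour 1 or 2; Xpot, which exports tRNA, had changes of 0.13, -0.62 and -0.17, called in D2A1 alone.

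Xpo6, the exporter of actin, had the highest average of the exportins. It had 131, 111, 110 and 105 CPM in p27K high 4T07 libraries, against 131, 121, 120 and 121 CPM in p27K negative ones. D2A1 gave 103, 99.6, 81.9 and 95.5 CPM in p27K high libraries, against 117, 103, 91.3 and 112 CPM in p27K negative libraries. EMT6 gave 87.8, 85, 88.6 and 89.6 CPM in p27K high libraries, against 94.8, 99.9, 92.9 and 94.1 CPM in p27K negative libraries. The gates overlapped in 4T07 and D2A1, and no line was called; the average of -0.10 ± 0.04 was not called (adjusted p = 0.0645, edgeR), but total count scaling, the stricter filter and leaving out D2A1 tumour 3 gave called averages of -0.19, -0.10 and -0.10. Total count scaling also gave a call in 4T07 (-0.24, adjusted p = 0.0317, edgeR), and leaving out tumour 0 one in EMT6 (-0.12, adjusted p = 0.0426). Ranbp17, with the lowest fitted average of the exportins, had few counts, and that average, which was not called, draws on 2 lines near 0. It had 1.42, 1.09, 1.31 and 1.11 CPM in p27K high 4T07 libraries, against 3.69, 4.09, 2.91 and 2.55 CPM in p27K negative ones. D2A1 gave 0, 0, 0 and 0 CPM in p27K high libraries, against 0.742, 0, 0 and 0 CPM in p27K negative libraries. EMT6 gave 0.132, 0.295, 0 and 0 CPM in p27K high libraries, against 0.0585, 0, 0 and 0 CPM in p27K negative libraries. It was lower in 4T07 (-1.40 ± 0.24, adjusted p = 0.00301, edgeR), with gates that did not overlap, and was near 0 in both other lines, so no fold is given there.

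The Y complex, the outer scaffold of the pore, was the role with the lowest median, -1.30. The 6 subunits that the rule matched were lower in each line (23.6%, 14.7% and 25.1% of all genes in 4T07, D2A1 and EMT6). Seh1l and Sec13, also subunits, are described with the other transport genes. Nup37 had 9.17, 5.71, 11.5 and 9.86 CPM in p27K high 4T07 libraries, against 25.3, 27.6, 32.5 and 27.9 CPM in p27K negative ones. D2A1 gave 15.6, 14.7, 19.6 and 15.8 CPM in p27K high libraries, against 49.7, 63.2, 63.1 and 53.8 CPM in p27K negative libraries. EMT6 gave 15.6, 16.2, 18.7 and 16.1 CPM in p27K high libraries, against 48.5, 42.2, 57.7 and 48.9 CPM in p27K negative libraries. The gates stood apart in every line, and its average was -1.65 ± 0.08. Nup133, with the highest average of the 6, had 36.4, 37.4, 40.7 and 35.3 CPM in p27K high 4T07 libraries, against 72.8, 65.4, 74.7 and 64.1 CPM in p27K negative ones. D2A1 gave 36.7, 38.7, 33.5 and 40 CPM in p27K high libraries, against 79.4, 52.4, 74.2 and 70 CPM in p27K negative libraries. EMT6 gave 38.7, 34.6, 35.8 and 35.3 CPM in p27K high libraries, against 87.5, 93, 85.9 and 87.4 CPM in p27K negative libraries. Nup133 still showed no overlap between gates, averaging -0.98 ± 0.06. Nup107, Nup85, Nup43 and Nup160 averaged -1.49, -1.35, -1.25 and -1.02. Nup107 and Nup133 fell by more in EMT6 than in 4T07: the change in 4T07 minus that in EMT6 was 0.50 ± 0.13 and 0.43 ± 0.14 (edgeR adjusted p = 0.0172 and 0.0442).

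The inner ring, which ties the scaffold to the membrane, was lower in 5 of 5 members in each line, with a median average of -0.87. The shares of all genes tested that were lower were 23.6%, 14.7% and 25.1% in 4T07, D2A1 and EMT6. Nup205 had 107, 85.1, 117 and 109 CPM in p27K high 4T07 libraries, against 225, 237, 241 and 214 CPM in p27K negative ones. D2A1 gave 86.2, 92.5, 59.1 and 87.4 CPM in p27K high libraries, against 163, 187, 221 and 206 CPM in p27K negative libraries. EMT6 gave 95.7, 99.4, 88.9 and 103 CPM in p27K high libraries, against 205, 233, 214 and 223 CPM in p27K negative libraries. No gate overlapped, and the average was -1.16 ± 0.07. Nup188, its paralogue in the ring, had 140, 111, 125 and 121 CPM in p27K high 4T07 libraries, against 228, 192, 185 and 201 CPM in p27K negative ones. D2A1 gave 64.3, 62.9, 45.1 and 56.1 CPM in p27K high libraries, against 81.7, 87, 75.3 and 87.6 CPM in p27K negative libraries. EMT6 gave 75.2, 84.8, 76.9 and 83.2 CPM in p27K high libraries, against 96.6, 127, 108 and 114 CPM in p27K negative libraries. Its gates did not overlap either and its average was -0.54 ± 0.05. Nup93, which anchors the ring, changed by -1.68 ± 0.09, -1.24 ± 0.11 and -0.55 ± 0.05 in 4T07, D2A1 and EMT6, and these differed (adjusted p = 3.38e-05, edgeR). Nup155 and Nup35 averaged -0.59 and -0.87; a copy of Nup35, Gm4353, had 8.63% and 11.5% as many counts in D2A1 and EMT6, and the D2A1 call of Nup35 was lost without tumour 4 (adjusted p = 0.0943, edgeR) and with the D2A1 libraries thinned to the shallowest, at -0.37 (adjusted p = 0.328) beside -0.74.

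Membrane nucleoporins hold the pore in the envelope. Ndc1 had 17.8, 22.8, 17.1 and 21.2 CPM in p27K high 4T07 libraries, against 71.4, 92.2, 76.1 and 84.4 CPM in p27K negative ones. D2A1 gave 69.4, 72.9, 66 and 62.1 CPM in p27K high libraries, against 151, 140, 170 and 142 CPM in p27K negative libraries. EMT6 gave 21.7, 20.9, 18 and 18.1 CPM in p27K high libraries, against 100, 88.8, 99.2 and 94.2 CPM in p27K negative libraries. The gates did not overlap in any line. The changes, -2.04 ± 0.08, -1.16 ± 0.12 and -2.29 ± 0.07, had the smallest p of all members for a difference between lines (adjusted p = 2.73e-05, edgeR). Pom121 was lower in every line and averaged -0.67, although it shares 665 exonic bases with Nsun5. Nup210 was lower in 4T07 (-2.59 ± 0.64, adjusted p = 0.014, edgeR) at 0 to 1.28 CPM in p27K high and 2.78 to 5.93 CPM in p27K negative libraries, and the call was lost without tumour 3. Nup210l, a paralogue, had 12.2, 10.5, 11.8 and 9.32 CPM in p27K high 4T07 libraries, against 11.1, 9.37, 10.1 and 11.1 CPM in p27K negative ones. D2A1 gave 2.41, 3.86, 3.25 and 2.86 CPM in p27K high libraries, against 2.97, 4.68, 2.77 and 4.03 CPM in p27K negative libraries. EMT6 gave 4.02, 3.54, 2.59 and 1.81 CPM in p27K high libraries, against 3.57, 4.05, 3.97 and 2.75 CPM in p27K negative libraries. Gates overlapped in each line and it was not called.

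The central channel nucleoporins carry the repeats that form the pore's barrier. Nup62 had 47.9, 35.5, 45.9 and 41.1 CPM in p27K high 4T07 libraries, against 106, 93.8, 89.2 and 85.1 CPM in p27K negative ones. D2A1 gave 51.9, 56.9, 51.9 and 45 CPM in p27K high libraries, against 79.4, 75.3, 53.7 and 82.3 CPM in p27K negative libraries. EMT6 gave 57.8, 59.4, 64 and 56.3 CPM in p27K high libraries, against 78.4, 72.6, 87.4 and 75.2 CPM in p27K negative libraries. In D2A1 alone the gates overlapped, and the call there was lost without tumour 1, 2 or 4. The changes of Nup62, -1.14 ± 0.10, -0.51 ± 0.14 and -0.40 ± 0.05, differed between lines (adjusted p = 0.00432, edgeR). Nup54 had 51.2, 73.3, 48.4 and 50.5 CPM in p27K high 4T07 libraries, against 59.5, 63.8, 58.3 and 66.2 CPM in p27K negative ones. D2A1 gave 37.1, 38.6, 39 and 32.5 CPM in p27K high libraries, against 59.4, 52.4, 72.5 and 57.6 CPM in p27K negative libraries. EMT6 gave 48.9, 52.6, 57 and 47 CPM in p27K high libraries, against 71, 68.3, 70.3 and 64.7 CPM in p27K negative libraries. It was not called in 4T07, where the p27K high library of tumour 2 stood above the other libraries, and without that tumour it was called lower at -0.29 (adjusted p = 0.00259, edgeR).

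On the cytoplasmic side 3 of 4 members were lower on average (24% of all genes tested), with a median of -0.35. Nup214 had 78.2, 67.4, 70.1 and 61.6 CPM in p27K high 4T07 libraries, against 100, 91.3, 88.6 and 93.7 CPM in p27K negative ones. D2A1 gave 55, 50.4, 36.3 and 52.9 CPM in p27K high libraries, against 88.3, 76.7, 67 and 77.7 CPM in p27K negative libraries. EMT6 gave 47.9, 46.9, 42.4 and 45.5 CPM in p27K high libraries, against 51.4, 66.4, 59 and 61.4 CPM in p27K negative libraries. It was lower in every line, averaging -0.46 ± 0.05, with gates that did not overlap. Ranbp2, the large SUMO ligase of the filaments that also binds Rangap1, had 232, 351, 225 and 245 CPM in p27K high 4T07 libraries, against 202, 281, 229 and 254 CPM in p27K negative ones. D2A1 gave 176, 177, 91.2 and 157 CPM in p27K high libraries, against 196, 212, 226 and 193 CPM in p27K negative libraries. EMT6 gave 176, 199, 220 and 212 CPM in p27K high libraries, against 222, 179, 218 and 205 CPM in p27K negative libraries. It was called in D2A1 alone (-0.49 ± 0.17, adjusted p = 0.0419, edgeR), a call lost without the block and without tumour 1, 2 or 4. Nup88 and Nup98, which is also the source of the Y complex subunit Nup96, averaged -0.42 and -0.28; the 4T07 call of Nup88 was lost without the block (adjusted p = 0.0703, edgeR) and without tumour 1, 3 or 4.

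In the nuclear basket 3 of 3 were lower on average (24% of all genes tested), with a median of -0.40. Nup50 had 69.5, 67.3, 56.5 and 60.2 CPM in p27K high 4T07 libraries, against 96.7, 102, 86.5 and 103 CPM in p27K negative ones. D2A1 gave 85.1, 91.2, 93.5 and 76.5 CPM in p27K high libraries, against 110, 145, 143 and 111 CPM in p27K negative libraries. EMT6 gave 82, 93, 94.3 and 91.4 CPM in p27K high libraries, against 122, 113, 129 and 117 CPM in p27K negative libraries. Gates were apart in each line, and the average was -0.50 ± 0.05. Tpr, the basket's filament protein, had 579, 1080, 492 and 529 CPM in p27K high 4T07 libraries, against 507, 624, 515 and 577 CPM in p27K negative ones. D2A1 gave 298, 306, 219 and 296 CPM in p27K high libraries, against 521, 474, 506 and 424 CPM in p27K negative libraries. EMT6 gave 261, 286, 262 and 265 CPM in p27K high libraries, against 350, 403, 328 and 383 CPM in p27K negative libraries. In 4T07 the gates overlapped, the p27K high library of tumour 2 was the highest, and Tpr was not called (0.20 ± 0.15; 0 without tumour 2). It was lower in D2A1 and EMT6 (-0.79 ± 0.13 and -0.44 ± 0.05), and the lines differed (adjusted p = 0.0039, edgeR). Nup153 averaged -0.40 and was called in D2A1 and EMT6.

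Ranbp9, a scaffold protein of a ubiquitin ligase complex, was the member called higher in each line. It had 128, 134, 106 and 108 CPM in p27K high 4T07 libraries, against 69.4, 75.2, 70 and 66 CPM in p27K negative ones. D2A1 gave 103, 107, 105 and 106 CPM in p27K high libraries, against 79.4, 96.8, 69.7 and 80.5 CPM in p27K negative libraries. EMT6 gave 129, 144, 163 and 135 CPM in p27K high libraries, against 118, 118, 125 and 114 CPM in p27K negative libraries. The gates did not overlap, with p27K high above p27K negative in 12 of 12 tumours, and the changes were 0.76 ± 0.08, 0.37 ± 0.12 and 0.26 ± 0.05 (edgeR adjusted p = 0.000344, 0.0323 and 0.00269). The D2A1 call was lost without tumour 1, 2 or 4. Ranbp10, its paralogue, had 62.2, 58.4, 56.1 and 49.1 CPM in p27K high 4T07 libraries, against 51.1, 53, 52.4 and 49.7 CPM in p27K negative ones. D2A1 gave 144, 138, 125 and 131 CPM in p27K high libraries, against 105, 113, 128 and 134 CPM in p27K negative libraries. EMT6 gave 60.9, 69.5, 65.9 and 69.1 CPM in p27K high libraries, against 64.6, 71.9, 64.5 and 68.4 CPM in p27K negative libraries. Gates overlapped in each line, and its average of 0.12 ± 0.05 was not called (adjusted p = 0.0655, edgeR), but RLE size factors gave a called 0.13, and leaving out D2A1 tumour 3 or 4 gave 0.14 or 0.15.

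**Figure D4:**
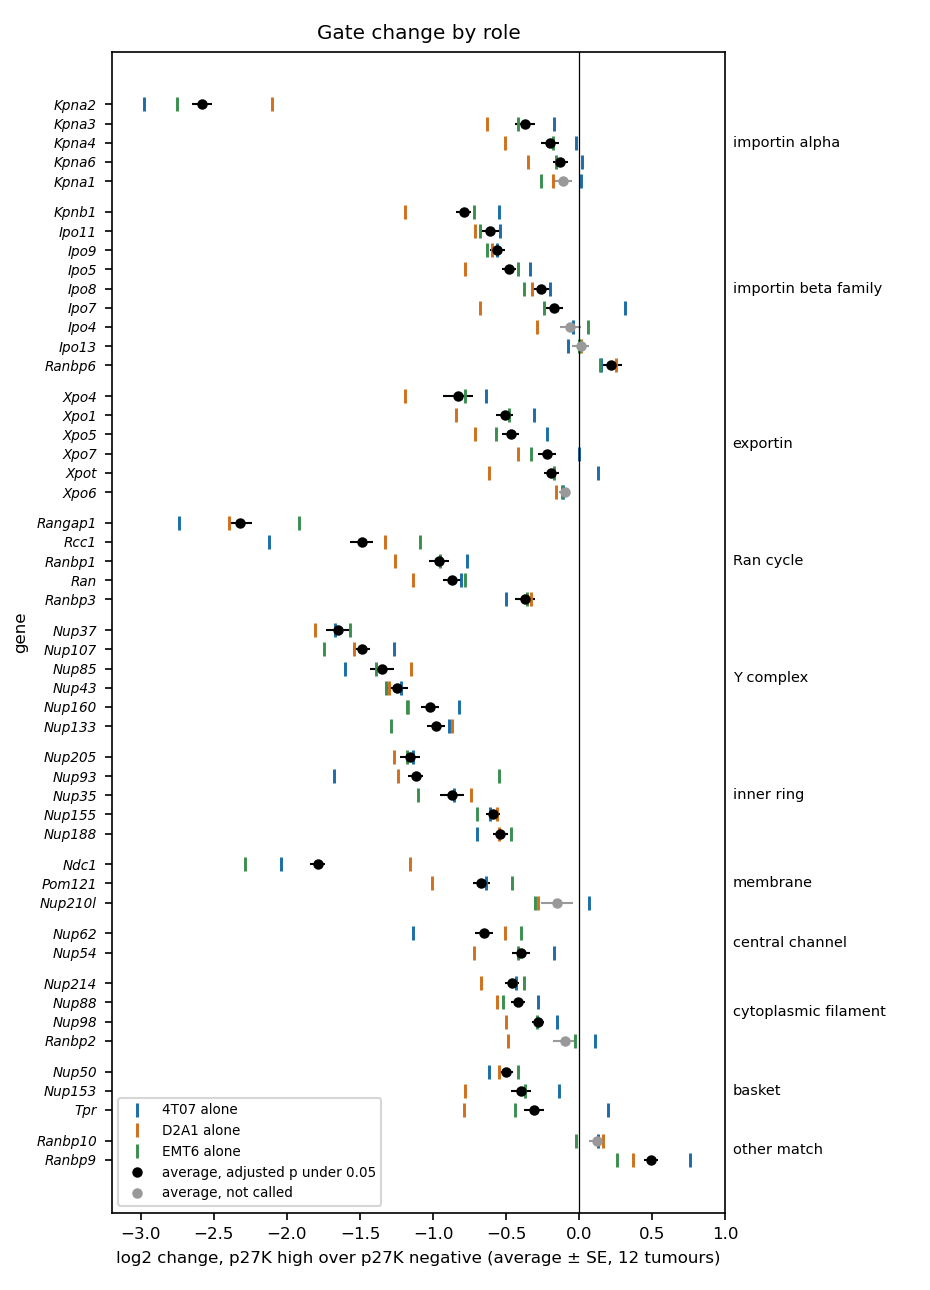
Average log2 change of each member over the 3 lines (dots, ± SE over 12 tumours, black where the adjusted p is under 0.05), with the change in each line as a tick and genes grouped by role. The 6 Y complex members lie between -1.65 and -0.98, and the importin alpha genes other than Kpna2 between -0.37 and -0.11.

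The change differed between lines for 17 of 52 members, beside 24.5% of all genes tested. Without EMT6 tumour 1, 2 or 4 the count was 11. The 17 include Ranbp17, which had no more than 4 counts in any D2A1 or EMT6 library, so that no difference can be read from it. The 6 with the smallest p were Ndc1, Nup93, Ipo7, Kpna2, Xpot and Rcc1. Ndc1 fell by less in D2A1, Nup93 and Rcc1 fell most in 4T07, and Ipo7 and Xpot were lower in D2A1 without being lower in 4T07. No member was called in opposite directions in 2 lines, although Ipo7, lower in D2A1 and EMT6, was called higher in 4T07 without tumour 2 (0.16) and in DESeq2 (0.33).

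**Figure D5:**
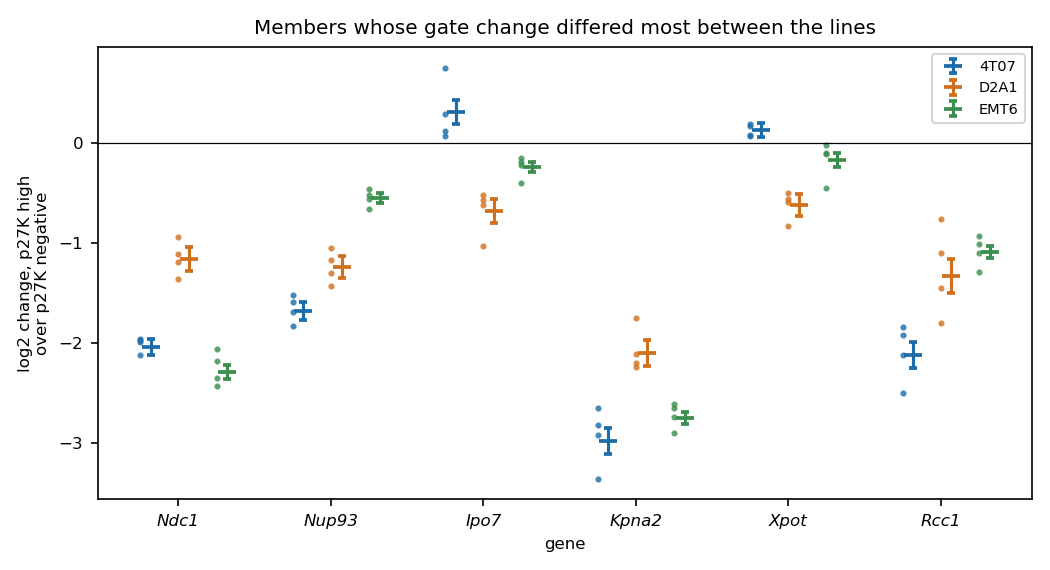
Log2 change, p27K high over p27K negative, of the 6 members with the smallest p for a difference between lines (points are the 4 tumours of a line, dashes the fitted change ± SE). Ipo7 and Xpot lie above 0 in 4T07 and below 0 in D2A1, and Ndc1 lies at -2.04 in 4T07, -1.16 in D2A1 and -2.29 in EMT6.

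Other genes of nuclear transport, which the rule for symbols does not match, were read beside the members. Of 42 such genes, 19 were lower on average, 4 were higher and 19 were not called, with a median of -0.16. Lower and higher calls numbered 12 and 3 of 42 in 4T07, 17 and 0 of 41 in D2A1 and 27 and 0 of 41 in EMT6, and of all genes tested 23.6% and 22.1% were lower and higher in 4T07, 14.7% and 14.9% in D2A1 and 25.1% and 24.1% in EMT6. The count lower in 4T07 is near that share. On average 24% of all genes were lower and 28.3% higher. The smallest p among those lower belonged to Cse1l, the exporter that returns importin alpha to the cytoplasm (-1.16 ± 0.05), Alyref, an mRNA export adaptor (-1.15 ± 0.05), Aaas, a nucleoporin (-1.68 ± 0.09), and Senp1, a SUMO protease (-0.85 ± 0.05). The 4 called higher were Seh1l (0.26), Thoc2 (0.23), Pcid2 (0.21) and Nxf1 (0.11). The nucleoporin genes Nupl1 and Nupl2, also outside the rule and the role summaries, averaged -0.34 (called lower) and -0.12 (not called). Seh1l, also a Y complex subunit, was higher in 4T07 (0.61) and not called in D2A1 or EMT6 (difference between lines, adjusted p = 0.00331, edgeR). Its 4T07 levels were 223 ± 70.7 CPM in p27K high and 142 ± 11 CPM in p27K negative libraries (SD, n = 4). Thoc2 had 195 ± 78.9 CPM in p27K high and 125 ± 19.5 CPM in p27K negative 4T07 libraries. Neither gene was examined without 4T07 tumour 2. Sec13, another Y complex subunit, averaged -0.26.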

How the data were processed

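RNA was sequenced from 24 libraries of sorted tumour cells. Per the labels' protocols, digested tumours were stained (CD45 and DAPI) before sorting on an AriaIII, RNA was extracted by the miRNeasy Micro kit, and GENEWIZ made the count matrices. The authors deposited raw gene counts, a table per line, that were not normalized. The submitters' processing notes name mm10 and DESeq2; for the aligner, counter, library kit and strand use, nothing is given in the sources used here. A totals entry and 176 blank entries were left out of the D2A1 and EMT6 tables (at most 0.0109% of a library), as were 4 ambiguous date symbols per table. All 24 columns were used.

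Each line was fitted with edgeR 4.0.16 (R 4.3.3, limma 3.58.1) by the quasi-likelihood test, with TMM scaling, the default low-count filter and the tumour as a block. Calls had a Benjamini-Hochberg adjusted p under 0.05 over all genes tested. A joint fit of 12 tumours gave the average over lines and the test of equal change. The standard error is the change over the square root of F. CPM is TMM scaled within a table, so levels are compared within a line. Exon lengths and gene positions come from GENCODE vM21 on GRCm38. Copies of members were sought with blastn 2.17.0. The fits were tested on simulated data. Alternatives, among them DESeq2 1.42.0, are listed in the closing section.

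The labels pair the gates within a tumour. The EMT6 columns carry numbers 0, 1, 2 and 4, unlike their titles, and were paired by them since libraries with the same number deviate together (over 5000 genes, correlations of 0.615, 0.574, 0.813 and 0.648). In 4T07 these were 0.801, 0.703, 0.609 and 0.195, and in D2A1 0.112, 0.21, 0.0834 and 0.294. The p-values reflect how the gate difference varied from tumour to tumour.

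The members, roles, lists and named genes were chosen with earlier results of these data known. Values in every library are given for Kpna2, Kpnb1, Ran, Rcc1, Rangap1, Ranbp1, Xpo1 and, in each role, the members with the lowest and highest average. Changes are given for every importin, members called higher and the 6 smallest p for a difference between lines. Other members are given as role summaries.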

Additional observations from a re-analysis of the deposited data

Results flagged for a closer look

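Of 152 groups of 4 libraries (named member, line and gate) tested for a library far from the others, 12 had one, where chance flags about 1 in 20 groups. Nup54 was at 73.3 CPM in the p27K high library of 4T07 tumour 2, above 48.4 to 51.2 CPM in the other 3. Ranbp1 was at 236 CPM in the p27K high library of 4T07 tumour 2, above 115 to 123 CPM in the other 3. Ranbp2 was at 351 CPM in the p27K high library of 4T07 tumour 2, above 225 to 245 CPM in the other 3. Ranbp6 was at 12.3 CPM in the p27K high library of 4T07 tumour 1, below 16.2 to 16.8 CPM in the other 3. Ranbp6 was at 10.4 CPM in the p27K negative library of 4T07 tumour 1, below 14.8 to 15.5 CPM in the other 3. Rangap1 was at 15.6 CPM in the p27K high library of 4T07 tumour 2, below 28.9 to 30.9 CPM in the other 3. Tpr was at 1080 CPM in the p27K high library of 4T07 tumour 2, above 492 to 579 CPM in the other 3. Xpo1 was at 509 CPM in the p27K high library of 4T07 tumour 2, above 234 to 280 CPM in the other 3. Xpo6 was at 131 CPM in the p27K negative library of 4T07 tumour 1, above 120 to 121 CPM in the other 3. Rangap1 was at 292 CPM in the p27K negative library of D2A1 tumour 3, above 244 to 249 CPM in the other 3. Tpr was at 219 CPM in the p27K high library of D2A1 tumour 3, below 296 to 306 CPM in the other 3. Tpr was at 286 CPM in the p27K high library of EMT6 tumour 1, above 261 to 265 CPM in the other 3.

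The gate change differed between the 3 lines, by edgeR's quasi-likelihood test of equal change with Benjamini-Hochberg adjustment over all genes tested, for 17 members, with adjusted p-values of Kpna2 (0.00183), Rangap1 (0.0145), Ndc1 (2.73e-05), Nup107 (0.0273), Rcc1 (0.0027), Ranbp17 (0.0475), Nup93 (3.38e-05), Nup133 (0.0314), Kpnb1 (0.004), Nup62 (0.00432), Ipo5 (0.0399), Nup153 (0.0336), Nup54 (0.0406), Tpr (0.0039), Xpot (0.00206), Ipo7 (0.00119) and Ranbp9 (0.00888). Ranbp17 had no more than 4 counts in any D2A1 or EMT6 library, so no difference between lines can be read from its value.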

How the results depend on the processing

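The change of Kpna2 was called in each line and on average under all settings run: RLE size factors, total count scaling, no or a stricter low-count filter, DESeq2 (within lines), no replicate block and each tumour left out. The stricter filter asked for 5 CPM in 4 libraries of a line, and in more libraries for the average. Without the replicate block, 27, 40 and 38 members were lower in 4T07, D2A1 and EMT6, beside 31, 41 and 41, and genes called were 4407, 3563 and 4471, beside 5868, 3794 and 6567. The average then held 42 called members and the difference between lines 12. Total count scaling shifted the median of all 4T07 genes to -0.14 and gave 37 members lower there.

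DESeq2 gave 2 members higher in 4T07. With D2A1 thinned to 1335433 counts per library, chosen after seeing the data, 40 members were lower and 0 higher. Leaving out a tumour gave 27 to 36 members lower and 1 to 2 higher in 4T07, 36 to 42 lower and 0 to 1 higher in D2A1 and 39 to 42 lower and 1 to 2 higher in EMT6. Genes called were then 3698 to 7727 in 4T07 (3698 without tumour 1) and 2444 to 5051 in D2A1 (2444 without tumour 1), and 11 to 21 members differed between lines (11 without EMT6 tumour 1, 2 or 4). Among single members 2273 values kept direction and side of the threshold, 61 lost and 25 gained the call, and 39 moved. In the shorter promoter window 15.9% of members held TTTGAA or TTCGAA (6.75% of genes tested), against 29.5% in the full one (16.5%). The causes were not tested. In D2A1, 3 of the p27K negative libraries hold 1335433 to 2110563 counts, which limits precision there.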
